A study of Mus musculus with 5 samples.

Results

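The regions of macroH2A1.2 enrichment at and around the genes of 39 chromatin modifiers were analysed. The list holds histone deacetylases (HDACs), sirtuins, poly(ADP-ribose) polymerases (PARPs), DNA methyltransferases and subunits of the Polycomb complexes, and it was drawn up by gene name. No ChIP-Seq value enters the rule, but earlier results of these data were known when the list was chosen. Each gene was taken as its GENCODE M21 body (mm10) plus 10 kb on each side, called its window here, and every region that overlapped a window was collected. All 39 were found among 21755 protein-coding genes of chromosomes 1 to 19 and X.

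The cells were 3T3-L1, a mouse fibroblast line that differentiates into adipocytes, carrying a lentivirus that stably expressed macroH2A1.2 fused to GFP. Chromatin was digested with micrococcal nuclease and immunoprecipitated with an anti-GFP antibody in 2 replicates of pre-adipocytes and 2 replicates of mature adipocytes. Mature adipocytes had been induced for 60 h with a cocktail of dexamethasone (0.25 µM), insulin (10 µg/ml) and IBMX (500 µM). A single library made without antibody served as control for all 4 samples. The transgene was present in both conditions, so that tagged protein driven by a viral vector was measured and not the endogenous histone. Titles and descriptions of the samples disagree: those titled as mature are both described as cells before differentiation, and the control is described as GFP cells with the antibody. The conditions used here come from the titles. Whether the cells carried the markers of an adipocyte cannot be read from enriched regions.

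MacroH2A1 is a variant of histone H2A that carries a large globular macro domain, and its splice form macroH2A1.1 binds ADP-ribose through that domain whereas macroH2A1.2 does not. The gene products listed here act on the same chromatin: HDACs and sirtuins remove acetyl groups from lysines, PARPs attach ADP-ribose made from NAD, DNA methyltransferases methylate cytosine, and Polycomb complexes methylate histone H3 or ubiquitinate histone H2A. In fat cells, sirtuins link NAD levels to gene activity, and HDAC9 is known as a repressor of adipogenic differentiation that acts in pre-adipocytes.

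The 4 samples had 36468 and 38546 regions in pre-adipocytes and 59375 and 61196 in mature adipocytes, in the order of the replicates. Library size relative to the control was 1.202 and 0.549 in pre-adipocytes and 1.23 and 1.21 in mature adipocytes, so replicate 2 of pre-adipocytes was the shallow library. That library stood apart, with 139 Mb inside regions against 280 to 294 Mb in the other 3. Its regions also had the highest median fold enrichment over control, 2.01 against 1.61 to 1.82. A gene without a region in it may therefore hold enrichment that was not detectable at this depth. Nothing in the labels ties samples to separate cultures, so p-values measure only the spread between these samples, and bulk chromatin cannot tell a larger share of cells with macroH2A1.2 at a locus from more of it per cell.

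Most chromatin modifier genes had macroH2A1.2 nearby in at least 1 sample, about as often as other genes of their length. A region lay in the window of 16 genes in replicate 1 and 11 in replicate 2 of pre-adipocytes, and of 19 and 21 in mature adipocytes. These were 41.0% and 28.2% of the list, against 33.7% and 29.3% of all protein-coding genes, and then 48.7% and 53.8%, against 40.0% and 40.2%. Among protein-coding genes within 10% of the length of each member (38 to 1227 genes per member), averaged over members, the shares were 36.4%, 32.1%, 43.3% and 43.3%. Each of these shares lay inside the 95% exact binomial interval of the list's share, for example 37.2% to 69.9% in replicate 2 of mature adipocytes. These intervals treat genes as independent draws and cover counting error only.

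**Figure D1:**
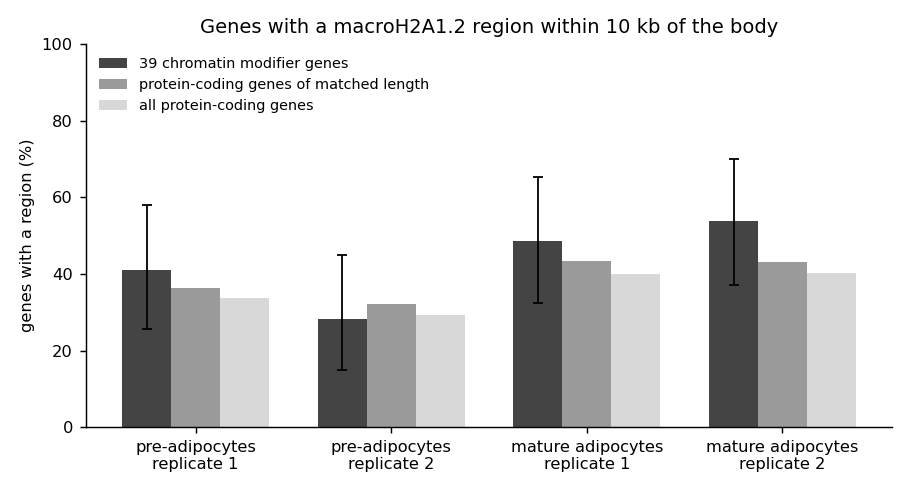
Share of genes (%) with a macroH2A1.2 region in the body or within 10 kb, for the 39 chromatin modifier genes, protein-coding genes of matched length and all protein-coding genes, in each of the 4 samples. Error bars are 95% exact binomial intervals of the 39 genes; the other 2 groups lie inside every interval.

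In at least 1 sample, 25 of the 39 genes had a region (64.1%, 95% exact binomial interval 47.2% to 78.8%), against 51.9% of all protein-coding genes and 55.7% of the length-matched ones. That excess of 8.44 percentage points over matched genes turned to -8.72 with gene bodies alone and to -3.64 with regions of at least 2-fold enrichment. A region in both replicates of pre-adipocytes was found for 8 genes (20.5%), against a background of 23.3%. In both replicates of mature adipocytes it was found for 18 genes (46.2%), against 33.2%. The number of genes with a region averaged 13.5 ± 3.54 (SD, n = 2) before differentiation and 20 ± 1.41 after it. The difference of 6.5 genes gave a two-sided exact permutation p of 0.33, the smallest that 2 samples against 2 can give.

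Regions were counted by group of enzymes. All 4 class IIa HDACs, which shuttle between cytoplasm and nucleus and repress MEF2 target genes, had a region in at least 1 sample, and 3 of them in all 4. Of the class I HDACs, the catalytic subunits of nuclear co-repressor complexes, 1 of 3 did, and it was Hdac2, whose window was touched over 89 to 289 bp by a wide region beyond its 3′ end and, in replicate 1 of mature adipocytes, by 1 region upstream. Class IIb and IV HDACs were represented by Hdac10, without a region, and Hdac11, with regions in every sample. Sirtuins had regions at 3 of 7 genes, all of them in both mature replicates and 1 of them in 1 pre-adipocyte replicate.

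Among the PARPs that respond to DNA breaks, only Parp2 of the 3 had a region. Of the 2 PARPs with macro domains of their own, Parp14 had regions in all 4 samples and Parp9 in none. The other PARPs, mostly mono-ADP-ribosyltransferases, had regions at 6 of 7 genes, with 2 and 3 genes in the pre-adipocyte replicates and 4 and 6 in the mature ones. DNA methyltransferases had regions at Dnmt3a and Dnmt3b, which methylate DNA de novo, and not at Dnmt1, which maintains methylation. Polycomb repressive complex 2 (PRC2), which methylates histone H3, had regions at 4 of 5 genes, and PRC1, which ubiquitinates H2A, at 2 of 3. The groups differ in length, with a median of 159 kb for class IIa HDACs, 26.6 kb for class I HDACs, 18.6 kb for sirtuins and 43.9 kb for the other PARPs. With 2 to 7 genes per group, no difference between groups was tested, and the counts stand against 51.9% of all protein-coding genes and 55.7% of length-matched genes with a region in at least 1 sample.

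No region lay in the window of 14 genes in any sample, namely Hdac1, Hdac3, Hdac10, Sirt2, Sirt3, Sirt6, Sirt7, Parp1, Parp3, Parp6, Parp9, Dnmt1, Eed and Bmi1. These genes were short and lay among many others: their median length was 20.6 kb, with 32.1 protein-coding gene starts per Mb within 500 kb on each side. Regions in all 4 samples were found at 8 genes, or 20.5% of the list, against 20.3% of all protein-coding genes and 22.5% of length-matched ones. These 8 genes had a median length of 45.3 kb and 11.5 starts per Mb. The 17 genes with regions in 1 to 3 samples lay between them, with 41.0 kb and 16.0 starts per Mb. The covered share of the surroundings, averaged over samples, had medians that ran the same way, at 5.68%, 8.64% and 19.2% for genes with regions in none, in 1 to 3 and in all 4 samples. The ranges overlapped widely, and the part that gene density or length has in the presence of a region was not tested beyond the matching on length.

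Genes of the same pathways that are not on the list were counted in the same way. Of 50 such genes (other HDACs and their complexes, ADP-ribose enzymes and readers, NAD synthesis, DNA methylation and demethylation, and further Polycomb subunits), 19 and 18 had a region in the pre-adipocyte replicates (38% and 36%, against 33.7% and 29.3% of all protein-coding genes) and 25 and 22 in the mature ones (50% and 44%, against 40.0% and 40.2%). In at least 1 sample, 30 of the 50 had a region (60%, against 51.9%), including 7 of 9 ADP-ribose enzymes and readers, 4 of 9 subunits of HDAC complexes, 4 of 6 PRC2 subunits, 8 of 14 PRC1 subunits and neither of the 2 other HDACs.

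Outside Hdac9, whose body held most of the regions in mature adipocytes, the regions around the chromatin modifiers lay mainly in the upstream flank and most bodies had none. With Hdac9 included, 15 of 31 and 9 of 18 regions in pre-adipocytes lay upstream and 11 and 7 in bodies, against 20 of 79 and 19 of 83 upstream and 54 and 59 in bodies in mature adipocytes. In the 10 kb upstream of the annotated start, the mean covered share per gene was 20.1% and 9.90% in pre-adipocytes and 19.8% and 15.6% in mature adipocytes. All protein-coding genes had 11.9%, 5.42%, 11.4% and 10.8% there, and length-matched genes 12.5%, 5.61%, 11.9% and 11.3%. The upstream share of the list was therefore above that of all genes in 4 of 4 samples. Inside the bodies the order was turned around, with 0.691%, 0.145%, 1.24% and 1.39% per gene on the list against 5.997%, 2.63%, 6.23% and 5.97% for all protein-coding genes. By bases, where the long Hdac9 weighs most, bodies of the list were covered by 2.96%, 0.686%, 9.66% and 8.35%, against 6.997%, 3.29%, 7.49% and 7.27%, so that the list was above all genes in both mature samples. Without Hdac9 the shares by bases were 0.999%, 0.175%, 0.914% and 1.16%. The 10 kb downstream of the list was covered by 4.26%, 0.931%, 2.54% and 3.28%, against 7.51%, 3.32%, 7.43% and 7.22%.

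Without Hdac9, which is described below, coverage of the list averaged over the 4 samples was above that of all protein-coding genes in 19 of the 20 steps of 1 kb upstream of the start. The list had 15.7% at 19 to 20 kb, 10.1% at 18 to 19 kb, 17.2% at 10 to 11 kb, 23.1% at 5 to 6 kb and 8.03% in the last 1 kb. All protein-coding genes had 10.5%, 10.6%, 10.8%, 10.6% and 6.58% at these distances, so that the higher coverage was broad and not confined to the neighbourhood of the start. From 2 to 3 kb inside the gene, the list had 1.32% and all genes 5.77%. Over the whole upstream 10 kb the list was higher by 6.92 percentage points, and over the body lower by 4.71, as means of the 4 samples. These are descriptions of 38 genes with no test. The upstream difference depended on weak regions: with regions of at least 2-fold enrichment alone it was -0.00943, and from RefSeq starts in place of the annotated ones it was 3.28, whereas the body stayed lower by 1.49 percentage points with the 2-fold minimum.

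**Figure D2:**
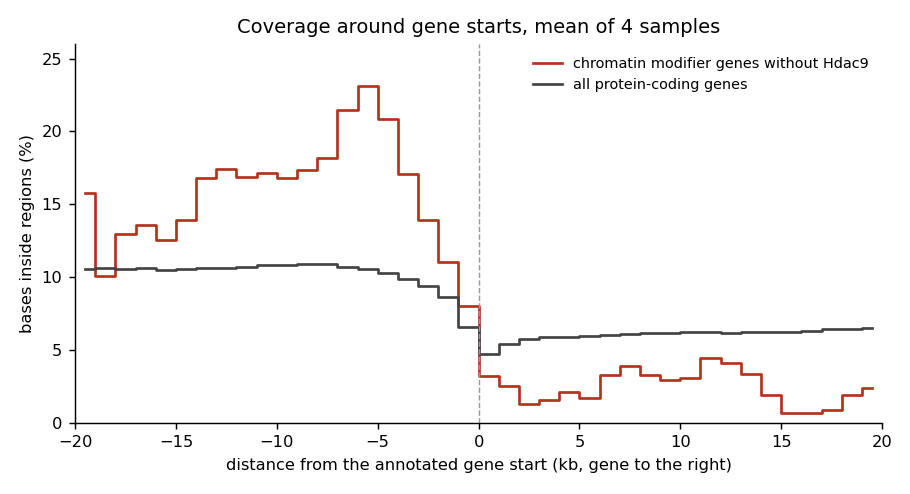
Bases inside macroH2A1.2 regions (%) in 1 kb steps from 20 kb before to 20 kb after the annotated gene start, mean of the 4 samples, for 38 chromatin modifier genes without Hdac9 and for all protein-coding genes. The list is above all genes over most of the upstream 20 kb, with 23.1% against 10.6% between 5 and 6 kb upstream, and lies below all genes inside the gene.

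Upstream coverage came from 22 of the 39 genes, 7 of them in all 4 samples (Hdac4, Hdac7, Hdac11, Parp8, Parp12, Parp14 and Ezh1). The shares of all protein-coding genes for these 2 counts were not determined, so nothing is read from them beyond the values per sample. Genes with a region in the upstream 10 kb numbered 13, 9, 17 and 17 in the 4 samples, or 33.3%, 23.1%, 43.6% and 43.6%, against 22.2%, 16.5%, 26.8% and 26.7% of all protein-coding genes. The median distance from the gene start to the near edge of these upstream regions was 4.30 kb and 4.47 kb in pre-adipocytes and 4.92 kb and 3.26 kb in mature adipocytes. A region covered the annotated start of 3 genes and 1 gene in pre-adipocytes and of 1 and 2 genes in mature adipocytes. The share of all protein-coding genes with a covered start was not counted. Coverage of the first 1 kb inside the gene was low for all protein-coding genes too, at 5.79%, 2.25%, 5.57% and 5.23%. The list without Hdac9 had 5.43%, 0.795%, 2.63% and 4.11% there, so mostly free starts were not particular to it.

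RefSeq lists 45 promoters (250 bases before to 50 after a start, GRCm38.p6) for 33 of the 39 genes, and a region overlapped 4, 1, 3 and 2 of them in the 4 samples, or 8.89%, 2.22%, 6.67% and 4.44%. Of all 32619 RefSeq promoters, 10.1%, 4.34%, 10.0% and 9.51% were overlapped. The promoters of the list were rich in the dinucleotide CG, which is its own reverse complement and was counted once per position. At least 10 CG stood in 84.4% of them, against 43.8% of all promoters, and at least 1 in 97.8% against 94.7%. The 7 promoters with a region in any sample had a median of 9 CG, and the 38 without one had 24, while for all promoters the medians were 4 and 9. Among genes whose promoter held at least 10 CG (31 of the list without Hdac9, 10148 in all), bodies of the list were covered by 0.645%, 0.0381%, 0.493% and 0.813%, against 3.79%, 1.65%, 4.12% and 3.86%. The upstream 10 kb of the same genes was covered by 22.3%, 10.8%, 22.0% and 16.8%, against 12.4%, 5.53%, 11.4% and 10.7%. The part of CG content in these shares was not tested, and these genes were not matched on length.

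Of the 7 promoters with a region, those of Hdac7 and Parp11 were overlapped in both replicates of a condition. They are shown with the 2 promoters of Hdac9, the gene whose covered share differs most between the conditions. The Hdac9 promoter of the shorter transcripts was overlapped in replicate 1 of pre-adipocytes alone, and that of the longest transcript in no sample. Neither was overlapped in mature adipocytes. CG dinucleotides are in capitals, all letters run 5′ to 3′ on the strand of the gene, and coordinates are mm10 (GRCm38.p6).
Hdac7, chr15:97844453-97844752, minus strand, 6 CG: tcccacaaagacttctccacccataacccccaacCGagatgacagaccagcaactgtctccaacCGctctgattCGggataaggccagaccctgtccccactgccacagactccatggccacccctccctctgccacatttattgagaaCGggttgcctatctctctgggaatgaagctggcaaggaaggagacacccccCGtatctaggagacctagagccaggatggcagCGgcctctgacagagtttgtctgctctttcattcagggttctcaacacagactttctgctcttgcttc
Parp11, chr6:127446590-127446889, plus strand, 5 CG: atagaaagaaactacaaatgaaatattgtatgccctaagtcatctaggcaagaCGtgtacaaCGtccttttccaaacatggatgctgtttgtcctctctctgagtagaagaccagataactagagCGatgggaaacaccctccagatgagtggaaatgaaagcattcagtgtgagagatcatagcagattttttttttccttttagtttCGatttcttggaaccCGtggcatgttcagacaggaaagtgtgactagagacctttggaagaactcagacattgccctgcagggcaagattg
Hdac9, promoter of the shorter transcripts, chr12:34528840-34529139, minus strand, 3 CG: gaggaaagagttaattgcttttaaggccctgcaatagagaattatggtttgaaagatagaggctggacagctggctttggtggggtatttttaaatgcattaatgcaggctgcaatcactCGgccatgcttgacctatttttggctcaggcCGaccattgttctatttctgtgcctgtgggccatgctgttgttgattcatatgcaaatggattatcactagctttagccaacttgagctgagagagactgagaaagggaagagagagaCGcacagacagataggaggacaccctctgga
Hdac9, promoter of the longest transcript, chr12:34917046-34917345, minus strand, 0 CG: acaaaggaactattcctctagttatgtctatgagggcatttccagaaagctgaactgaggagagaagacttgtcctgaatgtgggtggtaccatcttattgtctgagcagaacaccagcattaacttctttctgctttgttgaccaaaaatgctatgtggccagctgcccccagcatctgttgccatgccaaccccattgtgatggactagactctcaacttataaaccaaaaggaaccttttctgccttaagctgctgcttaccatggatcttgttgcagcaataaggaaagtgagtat
All 4 held fewer CG than the median of 23 over the promoters of the list, and than the median of 7 over all RefSeq promoters. This holds for the promoters chosen for printing only. The promoters of Ezh1, Hdac11, Hdac5 and Parp16, overlapped in 1 sample each, held 23, 22, 18 and 9 CG. The printed promoters of Hdac7 and Parp11 are not the only promoters of their genes. Further RefSeq promoters of Hdac7 held 5, 31 and 35 CG, and a further promoter of Parp11 held 25. None of these was overlapped by a region in any sample.

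**Figure D3:**
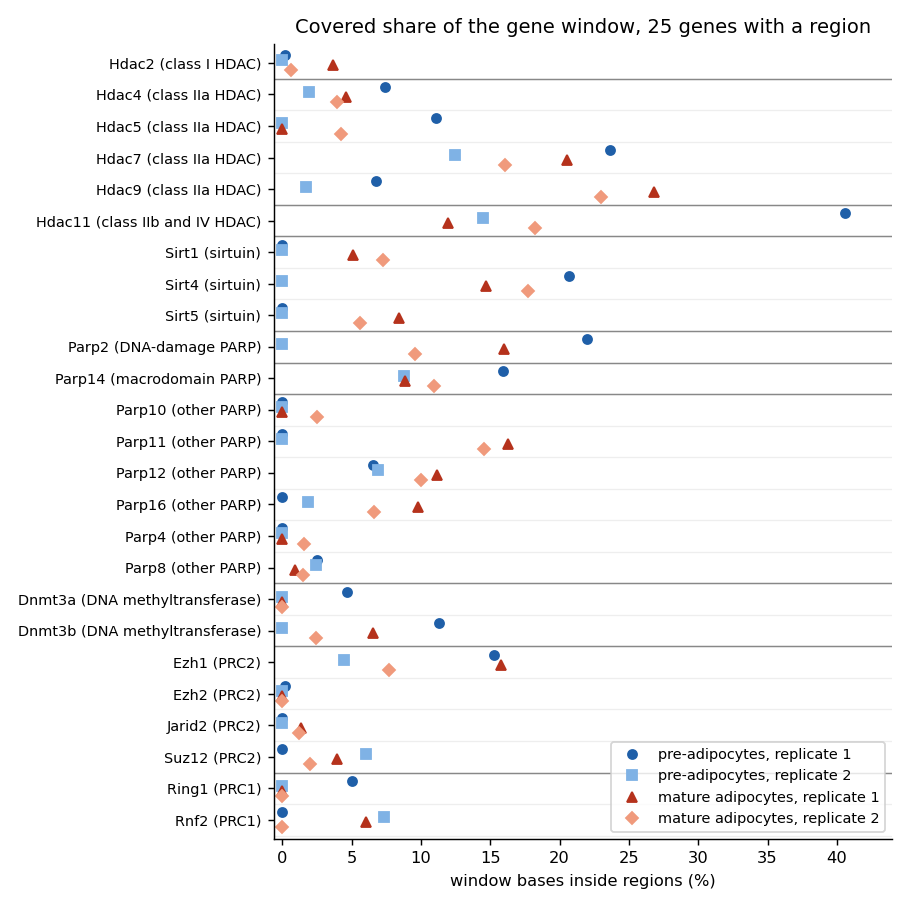
Window bases inside macroH2A1.2 regions (%) for the 25 chromatin modifier genes with a region, grouped by enzyme class, with 1 symbol per sample. Hdac9 has 23.0% and 26.8% in mature adipocytes against 1.69% and 6.79% in pre-adipocytes, Parp11, Sirt1, Sirt5 and Jarid2 are at 0 in both pre-adipocyte replicates, and Hdac11 is widest in replicate 1 of pre-adipocytes at 40.6%.

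Hdac9 encodes a class IIa HDAC and was the gene with the largest difference between the conditions on the list. Its annotated body spans 870 kb (chr12:34047580-34917095, minus strand). The window held 7 and 4 regions in the replicates of pre-adipocytes and 48 and 50 in those of mature adipocytes. The covered share of the window was 6.79% and 1.69% in pre-adipocytes and 26.8% and 23.0% in mature adipocytes, so that the groups did not overlap. The difference of the means was 20.7 percentage points, and its two-sided exact permutation p was 0.33, the smallest possible with 2 samples against 2.

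The regions did not fill the annotated gene evenly. GENCODE's basic set of 7 transcripts starts 388 kb inside the annotated gene or further in, and spans 481 kb (chr12:34047580-34528874). Within this span regions covered 56.2 kb and 15.0 kb in pre-adipocytes and 230 kb and 195 kb in mature adipocytes, that is 11.7%, 3.12%, 47.7% and 40.6%. The upstream 388 kb, which only transcripts outside the basic set reach, was covered by 1.08%, 0%, 2.27% and 1.13%. The first 20 kb bins of the basic transcripts, from 390 to 430 kb, were empty in replicate 1 of mature adipocytes and little covered in replicate 2, at 9% and 13%. From 430 kb to the 3′ end every bin held regions in both mature replicates.

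The 2 sides of Hdac9 differed. In the 1 Mb beyond the window on the 5′ side, 25.5% and 14.4% were covered in pre-adipocytes and 22.8% and 17.8% in mature adipocytes, with overlapping groups. In the 1 Mb on the 3′ side the values were 1.70% and 0.140%, then 5.16% and 4.62%, at a lower level than in Hdac9 but likewise without overlap of the groups. Regions of the whole of chromosome 12 covered 4.64 Mb and 2.21 Mb in pre-adipocytes and 4.78 Mb and 4.91 Mb in mature adipocytes, so that replicate 1 of pre-adipocytes had nearly the mature value there while its coverage of Hdac9 was far below it.

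**Figure D4:**
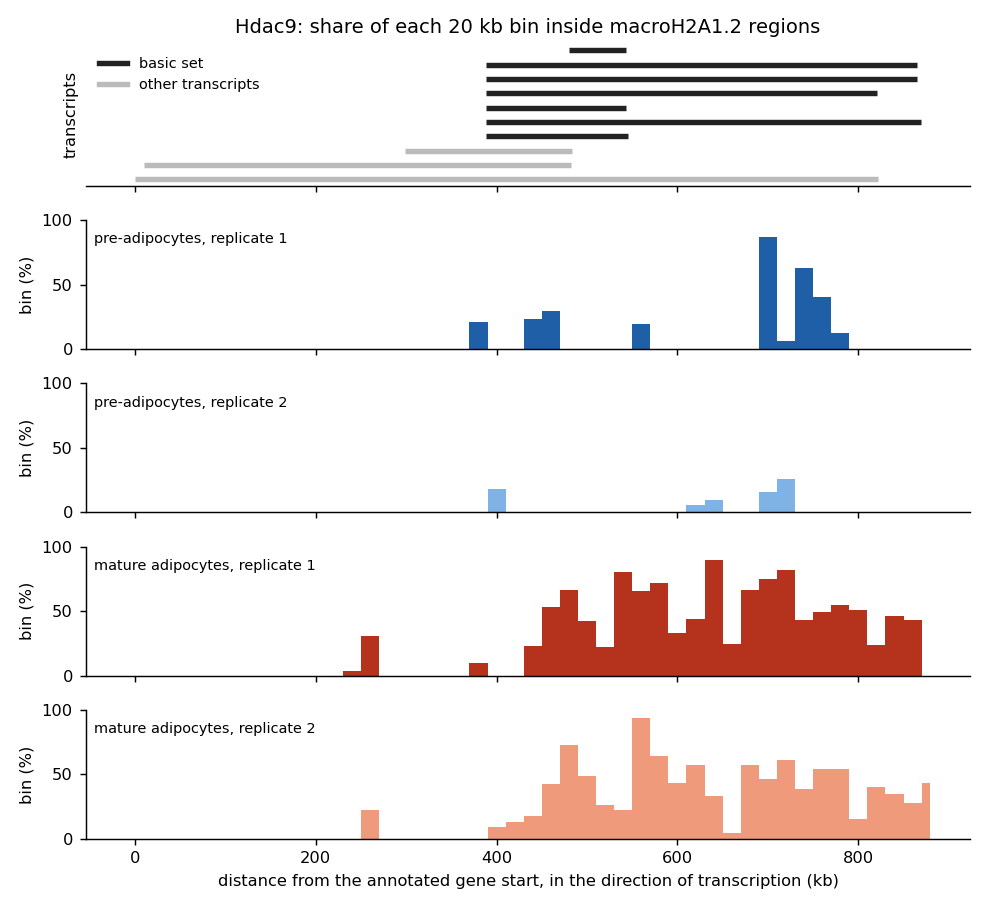
Share (%) of each 20 kb bin of the Hdac9 window inside macroH2A1.2 regions, by distance in kb from the annotated gene start in the direction of transcription, with 1 panel per sample and the transcripts on top (basic set in black, others in grey). In mature adipocytes every bin from 430 kb to the 3′ end holds regions, covering part of each, and most bins before 388 kb are empty in all 4 samples.

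The Hdac9 regions were close in length to regions elsewhere and weaker. Their median length was 5800 bp and 3400 bp in pre-adipocytes and 4300 bp and 4000 bp in mature adipocytes. Over all regions of the samples it was 5800, 3000, 3600 and 3400 bp. The median fold enrichment of the Hdac9 regions was 1.40, 1.57, 1.53 and 1.52, against 1.61, 2.01, 1.79 and 1.82 over all regions. The reads in all Hdac9 regions of a sample, summed, gave 1.34-fold (95% interval 1.24 to 1.44, 1969 ChIP and 1225 control reads) and 1.58-fold (1.34 to 1.86, 280 and 323 reads) in pre-adipocytes. In mature adipocytes they gave 1.48-fold (1.43 to 1.53, 9113 and 5015 reads) and 1.51-fold (1.45 to 1.56, 7852 and 4321 reads). Control reads in these regions stood at 20.3 to 21.5 per kb, close to one another in all 4 samples. These intervals cover counting error only.

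Replicates of mature adipocytes placed the regions alike. Of the 48 regions of replicate 1, 39 were overlapped by a region of replicate 2, and 43 of the 50 of replicate 2 by a region of replicate 1. All 7 regions of replicate 1 of pre-adipocytes were overlapped in replicate 1 of mature adipocytes. In the other direction, 9 of 48 and 10 of 50 mature regions overlapped a region of that pre-adipocyte sample. Only 1 of the 7 overlapped a region of the other pre-adipocyte replicate. Reads of intervals that were not called are not in the files used here, so a lower enrichment of Hdac9 in pre-adipocytes cannot be told apart from none.

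The difference at Hdac9 was not unique to it. Of 21754 other protein-coding genes, 807 (3.71%) were higher in mature adipocytes by as many percentage points of their window or more, and 124 were lower by as many. Among long genes it was seen in 4 of 229 other genes of at least 500 kb (1.75%) and in 1 of 38 other genes within 10% of the length of Hdac9 (2.63%), and these shares were not tested against that of all genes. The difference was 15.5 percentage points with an FDR of at most 1e-05. With regions of at least 2-fold enrichment the covered share was 0% and 0% in pre-adipocytes and 0.562% and 1.46% in mature adipocytes, a difference of 1.01 percentage points.

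Hdac9 also carried the difference over the whole list. Regions covered 5.06% and 1.77% of all window bases in pre-adipocytes and 10.0% and 8.60% in mature adipocytes (3.41% ± 2.33 against 9.30% ± 0.992, SD, n = 2, two-sided exact permutation p = 0.33). Without Hdac9 the values were 4.46%, 1.79%, 4.09% and 3.54%, a difference of 0.689 percentage points with p = 1 in the same exact permutation test. As a mean per gene, with every gene counted alike, the list had 4.97% and 1.75% in pre-adipocytes and 4.93% and 4.29% in mature adipocytes. All protein-coding genes had 7.82%, 3.52%, 7.86% and 7.56%.

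Of the other class IIa HDACs, Hdac4 and Hdac7 had regions in all 4 samples, and Hdac5 in 1 replicate of each condition. Hdac7 (chr15:97792664-97844502, minus strand) had 23.7% and 12.4% of its window covered in pre-adipocytes and 20.5% and 16.1% in mature adipocytes. Its main region lay over the gene start and the upstream flank: in pre-adipocytes it included the annotated start, with 423 ChIP and 239 control reads (1.47-fold) and 162 and 173 reads (1.71-fold). In mature adipocytes it began 0.099 kb and 1.90 kb upstream of the start, with 1.48-fold and 1.31-fold enrichment. The covered shares of the groups overlapped, and the promoter printed above was overlapped in 3 of the 4 samples. A second region beyond the 3′ end of Hdac7 also overlapped Slc48a1 in 3 samples.

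Hdac4 (chr1:91928779-92195699, minus strand), a close relative of Hdac7, had 7.40% and 1.95% of its window covered in pre-adipocytes and 4.57% and 3.97% in mature adipocytes. Regions lay on both sides of its start in every sample, and the upstream 10 kb were covered by 87.0%, 40.0%, 85.0% and 45.0%. The order followed the replicates and not the conditions. The annotated start lay in a region in replicate 1 of pre-adipocytes and replicate 2 of mature adipocytes. The single RefSeq promoter of Hdac4 (chr1:92180292-92180591, 32 CG) lies inside the annotated gene, and no region overlapped it in any sample.

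Hdac11, the only class IV HDAC (chr6:91156665-91174692, plus strand), had 40.6% and 14.4% of its window covered in pre-adipocytes and 11.9% and 18.2% in mature adipocytes. No region lay in its body. The upstream flank was covered by 83.4%, 32.0%, 45.4% and 57.4%, and in replicate 1 of pre-adipocytes the nearest region ended 0.065 kb before the start. The groups overlapped. By the mean of the 4 samples, Hdac11 (21.3%) was followed by Hdac7 (18.2%), Hdac9 (14.6%), Sirt4 (13.3%) and Parp2 (11.9%). Its rank rests on replicate 1 of pre-adipocytes: without that sample Hdac9 (17.2%) and Hdac7 (16.3%) were above Hdac11 (14.9%).

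Sirt1, an NAD-dependent deacetylase of the nucleus that represses PPARγ activity in fat cells, had no region in either replicate of pre-adipocytes and 2 regions in each replicate of mature adipocytes. They covered 5.08% and 7.26% of its window (chr10:63319005-63381704, minus strand). Together they held 156 ChIP and 78 control reads in replicate 1 (1.63-fold, 95% interval 1.23 to 2.17) and 195 and 111 reads in replicate 2 (1.46-fold, 1.15 to 1.86). One lay in an intron near the 5′ end of the annotated gene and the other in the upstream flank, where it also overlapped Dnajc12. The single RefSeq promoter of Sirt1 lies 42.4 kb inside the annotated gene, and the nearest region was 37.7 kb from it. Only 1.17% of the sequence within 500 kb of Sirt1 was covered on average. Sirt2, a mainly cytoplasmic deacetylase, had no region in any of the 4 samples.

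Sirt5, a mitochondrial enzyme that removes succinyl and malonyl groups, showed the same order with 1 region upstream. The region covered 0% of the window in both replicates of pre-adipocytes and 8.45% and 5.63% in mature adipocytes, with 120 ChIP and 55 control reads (1.78-fold) and 84 and 26 reads (2.68-fold). It lay 4.50 kb and 4.30 kb before the gene start. Sirt4, a mitochondrial ADP-ribosyltransferase and lipoamidase, had 20.7% of its short window covered in replicate 1 of pre-adipocytes, 0% in replicate 2, and 14.7% and 17.7% in mature adipocytes. Most of that was a region beyond its 3′ end that overlapped Pla2g1b, a neighbouring gene.

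Parp11, a mono-ADP-ribosyltransferase, was the only gene of the list with its start in a region in both mature replicates. None of its window (chr6:127446840-127494261, plus strand) was covered in pre-adipocytes, and 16.3% and 14.5% were covered in mature adipocytes. The region over the start held 256 ChIP and 156 control reads (1.34-fold) in replicate 1 and 378 and 203 reads (1.54-fold) in replicate 2. The upstream 10 kb were covered by 90.0% and 92.4%. The rest of the body was free of regions in all 4 samples.

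Jarid2, a DNA-binding subunit that recruits PRC2, was the last of the 4 genes with a region in both mature replicates and neither pre-adipocyte replicate. Its 2 regions lay in different introns, at chr13:44741401-44744200 in replicate 1 (86 ChIP and 36 control reads, 1.95-fold) and chr13:44879801-44882400 in replicate 2 (81 and 36 reads, 1.87-fold), so that the replicates did not share a region. The 4 genes were 10.3% of the list, against 4.73% of all protein-coding genes and 4.98% of the length-matched ones. With a 95% exact binomial interval of 2.87% to 24.2%, both background values lay inside the interval. The reverse pattern, a region in both pre-adipocyte replicates and neither mature one, was found for 0 genes, which allows a share of up to 9.03% by the exact binomial interval, against a background of 0.896%.

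Of the genes whose groups did not overlap in covered share, 8 were higher in mature adipocytes (Hdac2, Hdac9, Sirt1, Sirt5, Parp11, Parp12, Parp16 and Jarid2), or 20.5% of the list against 14.1% of all protein-coding genes. In the other direction there was 1 gene, Parp8, or 2.56% against 3.39%. Of the 8, Hdac2 rested on a region that touched the window over 89 to 289 bp and 1 further region in a single sample. Parp12 had 6.55% and 6.93% in pre-adipocytes and 11.2% and 10.0% in mature adipocytes, and Parp16 had 0% and 1.88%, then 9.78% and 6.65%. Except at these 2 genes, the shallow library of pre-adipocytes was the lowest of the 4 or tied at 0, and its part in these counts was not tested.

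Parp12, Parp14 and Parp8, which attach single ADP-ribose units, had an upstream region in all 4 samples. At Parp14 (chr16:35832874-35871544, minus strand) the single region covered 93.4% and 51.4% of the upstream 10 kb in pre-adipocytes and 52.0% and 64.0% in mature adipocytes, at 1.23-fold, 1.45-fold, 1.43-fold and 1.25-fold enrichment. At Parp12 (chr6:39086410-39118349, minus strand) the upstream share was 34.0%, 36.0%, 58.0% and 34.0%. At Parp8 (chr13:116854820-117025537, minus strand) it was 47.4%, 46.0%, 17.4% and 28.0%, higher in both pre-adipocyte replicates. The covered share of the whole Parp8 window was 2.48% and 2.41% against 0.911% and 1.47%. Parp2, which is activated by DNA breaks, had 22.0% of its window covered in replicate 1 of pre-adipocytes, 0% in replicate 2, and 16.0% and 9.56% in mature adipocytes, in upstream regions shared with Ccnb1ip1.

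Ezh1, the PRC2 methyltransferase that prevails in cells that do not divide, had the strongest enrichment among genes with a region in all 4 samples. The reads of its regions gave 2.34-fold (95% interval 1.95 to 2.82) and 3.56-fold (2.42 to 5.29) in pre-adipocytes and 1.98-fold (1.63 to 2.41) and 2.44-fold (1.88 to 3.21) in mature adipocytes. Its window (chr11:101191115-101226463, minus strand) was covered by 15.3%, 4.45%, 15.8% and 7.70%, mostly upstream, where the share was 84.0%, 24.6%, 74.6% and 42.6%. The start lay in a region in replicate 1 of pre-adipocytes. Its paralog Ezh2, which prevails in dividing cells, had a single overlap, in replicate 1 of pre-adipocytes, over 0.165% of its window.

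The remaining genes had narrower or less regular coverage. Dnmt3b, a de novo DNA methyltransferase, had 11.3% of its window covered in replicate 1 and 0% in replicate 2 of pre-adipocytes, and 6.52% and 2.40% in mature adipocytes. Hdac5, the last class IIa HDAC, had 11.1% and 0%, then 0% and 4.25%. Suz12, a core subunit of PRC2, had 0% and 6.06%, then 3.93% and 1.97%, and Rnf2, the ubiquitin ligase of PRC1, had 0% and 7.31%, then 6.04% and 0%. At these genes the replicates of at least 1 condition disagreed on whether a region was present.

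Single samples held the regions of 5 further genes. Dnmt3a (4.67% of its window), Ring1 (5.06%) and Ezh2 had theirs in replicate 1 of pre-adipocytes alone, and Parp4 (1.54%) and Parp10 (2.48%) in replicate 2 of mature adipocytes alone. The region of Dnmt3a held 184 ChIP and 106 control reads, that of Ring1 125 and 58. Those of Parp4 and Parp10 were smaller, with 54 and 26 reads and 44 and 15 reads.

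Reads per called length were compared between the conditions on the ChIP counts, inside intervals merged over the samples. A change in how far a region extends is divided out by this measure. Merging chains overlapping regions, so that the samples in an interval need not share a base. At Parp8, for example, the regions of the 2 mature replicates did not overlap each other. Each interval also had to pass the caller in every sample, which can narrow the differences in density that remain. The gain or loss of a whole region cannot appear in this test. Regions of the 4 samples were merged into 62927 intervals, and for the 12857 called in all 4 samples, reads per called length were tested by edgeR's quasi-likelihood method, with Benjamini-Hochberg adjustment over all of them. At an adjusted p under 0.05, 11 intervals (0.0856%) were higher in mature adipocytes and 2 (0.0156%) in pre-adipocytes, with 1176 at an unadjusted p under 0.05. The lean toward mature adipocytes rested on the samples and scaling used: without replicate 2 of pre-adipocytes 98 were higher in mature adipocytes and 126 in pre-adipocytes, among intervals of similar called length 54 and 41, and with library sizes scaled to the control 0 in either direction. None of the 11 intervals at the chromatin modifiers was called in either direction by edgeR, and 1 had an unadjusted p under 0.05. DESeq2 called 6 intervals in all and assigned no adjusted p to those of the list.

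The interval with the smallest p lay upstream of Hdac11 (chr6:91138601-91153000). More than 1 part of it fell outside the 10 kb flank, since the window begins at 91146665. Its fold enrichment was 1.85 and 2.15 in pre-adipocytes and 1.57 and 1.58 in mature adipocytes, so that the groups did not overlap. The log2 fold change was -0.35 ± 0.10 (SE), mature against pre, with an edgeR adjusted p of 0.192. It passed the threshold without replicate 2 of pre-adipocytes (adjusted p = 0.0226) and when only intervals of similar called length were kept (adjusted p = 0.0198).

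The other 10 intervals, at Hdac2, Hdac4, Hdac7, Hdac9, Hdac11, Parp8, Parp12, Parp14 and Ezh1, had log2 fold changes between -0.18 and 0.12. Reads were counted over whole intervals, also where these ran past a window. That of Hdac2 lies mostly beyond the window, which it reached in 3 samples. The downstream interval of Hdac7 did not reach the window in replicate 1 of pre-adipocytes. That of Hdac11 did not reach it in replicate 1 of mature adipocytes. The interval at Hdac9 (chr12:34188401-34226000) changed by 0.02 ± 0.08 in reads per called length. It was the single part of the gene that could be tested, since the remaining mature regions had no count in 1 or both pre-adipocyte samples. Its called length was 17400 and 8400 bp in pre-adipocytes and 30600 and 20600 bp in mature adipocytes, which the test does not see. The downstream interval of Hdac11 went the other way in length, with 14800 and 9000 bp, then 4800 and 2400 bp, at a log2 fold change of 0.12. Over the 11 intervals the median log2 fold change was 0.02, against -0.00072 for all intervals tested. The mean fold enrichment on the log2 scale was 0.65, 0.99, 0.66 and 0.71 in the 4 samples, a difference of -0.14 with a two-sided exact permutation p of 1. Without replicate 2 of pre-adipocytes the difference was 0.0308.

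**Figure D5:**
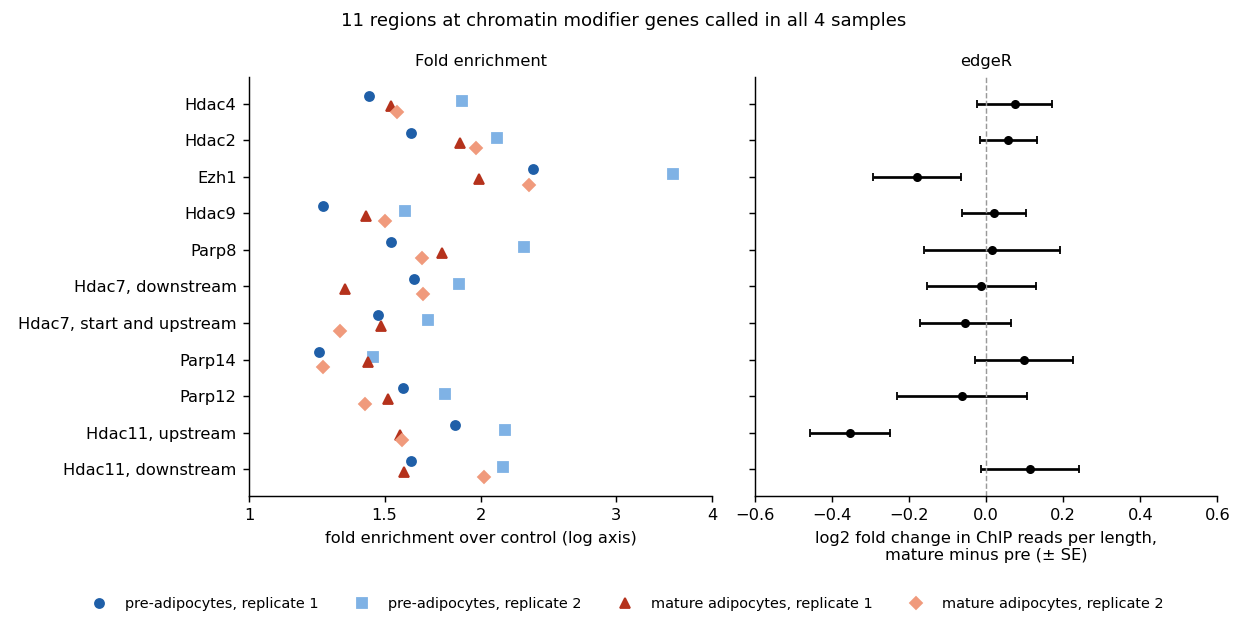
Left, fold enrichment over control (log axis) in each sample for the 11 intervals at chromatin modifier genes that were called in all 4 samples; right, log2 fold change of ChIP reads per called length, mature minus pre-adipocytes, with bars of ± 1 SE from edgeR. The upstream interval of Hdac11 is lowest at -0.35, and the other 10 lie between -0.18 and 0.12.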

How the data were processed

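MacroH2A1.2-GFP was profiled by ChIP-Seq in 2 pre-adipocyte and 2 mature adipocyte samples with 1 control library. Reads were aligned by the authors to mm10 with Bowtie 1.1.2 (unique alignments, at most 2 mismatches) and freed of duplicates with Picard, and SICER 1.1 called the regions of each sample (versions per the submitters' processing notes). The deposited tables give raw counts of ChIP and control reads per region, a p-value, an FDR derived from it (largest value under 0.001), and the fold enrichment, a ratio that the authors scaled by library size. The control has no table among the files used here.

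Regions were intersected (at least 1 bp) with gene windows by script. Relative library size was recovered from the fold enrichment. Intervals of a fold enrichment are exact binomial intervals of the 2 counts at 95%. Reads without molecular identifiers are not independent molecules, so that intervals cover counting error only. Single values per sample were compared by two-sided exact permutation tests. ChIP counts of merged regions called in every sample were tested with edgeR 4.0.16 (quasi-likelihood, TMM on length-adjusted counts, offset of log called length, Benjamini-Hochberg, threshold 0.05) in R 4.3.3. DESeq2 1.42.0 was an alternative. On simulated counts of 12857 regions for this comparison, edgeR recovered 100 of 100 regions changed by a log2 fold of 1 and 71 of 100 changed by 0.5, with 6 unchanged regions called. The simulated counts had an assumed dispersion, and their called lengths did not depend on the change. The recovery therefore checks the fit and does not give the power in the real samples. Regions not called in every sample have no count there and were outside this test. Promoter sequences are from RefSeq (GRCm38.p6) and matched 33 of 39 genes by symbol.

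The genes, the lists and the alternatives were chosen with earlier results of these data known. Values per sample were to be given for genes with a region in all 4 samples, in both replicates of 1 condition alone, or over the start in both replicates of a condition, for Sirt1 and Sirt2, and for the 5 genes of widest coverage. Values of the other genes were added after they were seen.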

Additional observations from a re-analysis of the deposited data

How the results depend on the processing

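Of the recomputed values, 71 were labelled the same, 22 moved and 4 reversed. For counts and shares, the same means a value near the main one. For differences between conditions it means only that the sign was kept, whatever the size. Among the 71 are therefore 2 differences that nearly vanished. That in window bases was 0.689 percentage points without Hdac9, against 5.89. That of the Hdac9 window was 1.01 with the 2-fold minimum, against 20.7. With regions of at least 2-fold enrichment, 13 genes had a region in at least 1 sample, 1 in both pre-adipocyte replicates and 2 in both mature ones, against 25, 8 and 18, and the share with a region minus that of length-matched genes was -3.64 percentage points in place of 8.44. With gene bodies alone the counts were 10, 3 and 7 and the difference -8.72 percentage points, and with 5 kb flanks 5 genes had a region in both pre-adipocyte replicates. For the counts in both replicates, the shares of all protein-coding genes at these settings were not determined, so nothing is read from them. The upstream difference from all protein-coding genes, 6.92 percentage points, was 3.97 with an FDR of at most 1e-05, -0.00943 with the 2-fold minimum and 3.28 from RefSeq starts, and the body difference of -4.71 was -1.49 with the 2-fold minimum. The alternatives for these 2 differences and for Hdac9 were chosen after seeing the data.

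The number of intervals past the edgeR threshold, 13, was 6 with DESeq2, 0 with library sizes relative to the control (69 at an unadjusted p under 0.05), 1 with an offset of control reads, 27 with at least 50 ChIP reads and 95 among intervals of similar called length. One interval of the list passed in the last of these, that upstream of Hdac11. Leaving out 1 replicate gave 1 to 224 intervals, 224 of them without replicate 2 and 115 without replicate 1 of pre-adipocytes, 5 without replicate 1 and 1 without replicate 2 of mature adipocytes, and 0 to 1 at the list (Hdac11, without replicate 2 of pre-adipocytes).

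Leaving out 1 replicate gave 22 to 25 genes with a region, a difference of 4 to 9 genes and of 4.24 to 7.54 percentage points of window bases, 18.1 to 23.2 points at Hdac9, 6.23 to 7.64 upstream and -5.44 to -4.38 in bodies. The difference in mean log2 fold enrichment, mature minus pre, ranged from -0.31 to 0.0308, the latter, a reversal, without replicate 2 of pre-adipocytes, and the cause was not tested.

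With the replicate number as a block, the differences were 6.5 genes and 5.89 percentage points, each with an exact p of 0.5, and 27 intervals passed edgeR's threshold (20 higher in mature adipocytes, 7 in pre-adipocytes), 0 of them at the list. Replicates with the same number deviated together with a correlation of 0.00781. With 2 replicates per condition, the value for different numbers is the same with the sign turned (-0.00781). It cannot show whether samples shared a culture or a batch. Depth limits replicate 2 of pre-adipocytes most.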
